A study of Mus musculus with 16 samples.

Results

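Carbonic anhydrases of the kidney cortex were compared across 4 genotypes of mice. The rule took the probe sets annotated to 10 genes, namely Car2, Car4, Car5a, Car5b, Car7, Car8, Car9, Car12, Car14 and Car15, with 1 probe set per gene, the one of highest mean over 16 arrays. Of these 10 genes, 8 had a probe set of their own among the 22180 genes measured. The probe set of Car5a is also annotated to BC048644 and that of Car14 also to Aph1a, so neither gene is given a value here.

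RNA came from mice 3 months old, 4 arrays per group. Wild-type mice were C57BL/6. Vhl mutants carried floxed Vhl alleles (Vhl F/F) and Ksp-Cre, Pbrm1 mutants carried Pbrm1 F/F and Ksp-Cre, and double mutants carried both pairs of floxed alleles and Ksp-Cre. All 3 mutant groups had a mixed background of C57BL/6, BALB/c and 129, so a comparison with wild type also compares strains and the presence of Cre. Ksp-Cre is driven by the promoter of the kidney cadherin Cdh16, which is active in tubule epithelium, so other cells of the cortex keep both genes. Which segments of the tubule lost the genes was not measured here. Vhl encodes the part of a ubiquitin ligase that recognises hydroxylated hypoxia-inducible factors, and Pbrm1 encodes a subunit of the PBAF chromatin remodeler. The study set out to find early transcriptional changes on the way to clear cell renal cell carcinoma, a tumor in which both genes are often inactivated.

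Carbonic anhydrases interconvert carbon dioxide and water with bicarbonate and a proton. In the proximal tubule a cytosolic enzyme and membrane-bound enzymes facing the tubule fluid together allow filtered bicarbonate to be taken back, and in intercalated cells of the collecting duct the cytosolic enzyme feeds the pumps and exchangers that secrete acid or base. CA9, the human counterpart of Car9, is among the best known targets of hypoxia-inducible factor and a standard marker of clear cell renal cell carcinoma, where loss of VHL leaves the factor active.

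The values are log2 expression from robust multi-array averaging, and array medians over the 22180 genes lay between 5.18 and 5.27. Genes below 3.72, the highest lower quartile of these genes on any array, were treated as possibly at background. Over all probe sets of the table the highest lower quartile was 3.33. The number of arrays limits the precision, and the labels do not say that 4 arrays are 4 animals, so the p-values rest on a spread between arrays that may be technical. Each array's description holds a number followed by L or R, neither of which the labels explain, and most groups hold 2 numbers with 2 arrays each. Double mutant replicates 1, 2 and 3 share a number, and replicates 2 and 3 also share the letter. Across genes, the deviations from the double mutant mean correlated at -0.51 between replicates 1 and 3 and at -0.07 between replicates 3 and 4, so replicate 3 went with replicate 4, which carries another number. In the other groups, arrays with the same number correlated between -0.20 and -0.10 and arrays with different numbers between -0.51 and -0.30. Proximal tubule markers, which define much of the cortex, had a mean level between 11.02 and 11.53 on all arrays, and 0 of 10 were at background. The probe sets of Vhl and Pbrm1 did not tell the genotypes apart, with group means from 6.22 to 6.34 for Vhl and from 8.13 to 8.19 for Pbrm1, and the part of each gene that its probe set covers was not examined here. The Vhl mutants have the highest description numbers, and any batch this stands for cannot be told apart from the genotype.

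The sequence of the Car9 promoter is shown because this gene changed most and because hypoxia-inducible factors bind the core letters ACGTG or GCGTG. Those of Car15 and Car4, the members that fell most, stand beside it. Each run holds the 250 bases before the RefSeq start (GRCm38.p6), 5′ to 3′ on the gene's strand, with any core match in capitals: Car9 at chr4:43506776-43507025 on the plus strand, Car15 at chr16:17838187-17838436 on the minus strand and Car4 at chr11:84957504-84957753 on the plus strand.
Car9: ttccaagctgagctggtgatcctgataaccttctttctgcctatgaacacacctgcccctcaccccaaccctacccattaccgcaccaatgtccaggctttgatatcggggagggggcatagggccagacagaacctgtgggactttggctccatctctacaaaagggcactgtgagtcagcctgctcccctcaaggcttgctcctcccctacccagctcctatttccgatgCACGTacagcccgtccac
Car15: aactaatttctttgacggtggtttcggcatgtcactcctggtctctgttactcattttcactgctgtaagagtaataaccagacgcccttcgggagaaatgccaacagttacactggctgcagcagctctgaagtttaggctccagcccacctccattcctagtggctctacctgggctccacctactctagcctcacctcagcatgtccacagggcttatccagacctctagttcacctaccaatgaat
Car4: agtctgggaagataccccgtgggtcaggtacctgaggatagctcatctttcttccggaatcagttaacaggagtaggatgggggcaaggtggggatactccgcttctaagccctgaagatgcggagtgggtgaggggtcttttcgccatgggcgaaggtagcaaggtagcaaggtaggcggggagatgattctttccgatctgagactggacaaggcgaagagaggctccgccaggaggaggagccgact
Both strands were searched. The Car9 window held 1 match, ACGTG read on the reverse strand from 18 to 14 bases before the start, and it lies within the longer string TACGTGC on that strand, which holds the core letters. The windows of Car15 and Car4 held 0 matches of either core, which says only that these letters are not in these 250 bases. Members that were not called in any of the 7 comparisons (limma), or have no value here, held matches as well: 5 of GCGTG for Car5b, 3 of GCGTG over 2 windows for Car7 and 1 of ACGTG for Car14. Of the 32851 windows of this length in the RefSeq table, 38.6% held ACGTG or GCGTG on either strand, 16.6% held ACGTG and 0.68% held TACGTGC. The last string is the Car9 match with its flanking bases and was not one of the cores searched for. Its share is therefore no test of the Car9 match. Of the 10 members, 8 had an entry in that table. A match is a description of the sequence, and factor binding was not measured.

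Car9, a transmembrane enzyme with its catalytic domain outside the cell, rose in both groups with the Pbrm1 deletion, and the Vhl mutants stayed below those groups. Its 4 wild-type arrays read 6.42, 6.64, 6.34 and 6.65 (log2, replicates 1 to 4). The Vhl mutant arrays read 6.46, 6.51, 6.60 and 6.66, inside or next to the wild-type range. The Pbrm1 mutant arrays read 7.46, 7.54, 7.37 and 7.52, all above every wild-type and Vhl mutant array. The double mutant arrays read 8.05, 7.87, 8.74 and 8.22, all above every Pbrm1 mutant array. The order of levels was therefore wild type and Vhl mutant together at the bottom, then Pbrm1 mutant, then double mutant.

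In Pbrm1 mutants Car9 rose 1.95-fold over wild type (log2 change of 0.96 ± 0.14 SE, adjusted p = 0.00026, limma, n = 4 arrays per group). In double mutants it rose 3.26-fold over wild type (log2 change of 1.71 ± 0.14 SE, adjusted p = 4.7e-08). In Vhl mutants the log2 fold change was 0.04 ± 0.14 SE, with a 95% confidence interval from -0.25 to 0.33 (adjusted p = 0.92), which leaves out a rise of the size seen in either other group. Between mutant groups, which share the mixed background label, double mutants exceeded Vhl mutants 3.17-fold (adjusted p = 1.3e-07), and Vhl mutants lay below Pbrm1 mutants (log2 change of -0.92 ± 0.14 SE, adjusted p = 0.00015). Double mutants exceeded Pbrm1 mutants 1.68-fold (log2 change of 0.75 ± 0.14 SE, adjusted p = 0.00099). The double mutant effect was larger than the sum of the single effects by 0.70 ± 0.20 SE (95% interval 0.29 to 1.12), which did not pass (adjusted p = 0.06).

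The array holds a second Car9 probe set of lower mean, 6.21 against 7.19 over the 16 arrays, and it differed from the first in the double mutants. Its group means were 6.09 ± 0.11 (SD, n = 4) in wild type, 5.93 ± 0.20 in Vhl mutants, 6.53 ± 0.20 in the Pbrm1 mutants and 6.30 ± 0.21 in double mutants. As with the first, the Vhl mutants lay below the Pbrm1 mutants (log2 change of -0.59 ± 0.13 SE, adjusted p = 0.004). Its differences from wild type did not pass in Pbrm1 mutants (0.43 ± 0.13 SE, adjusted p = 0.058) or in double mutants (0.21 ± 0.13 SE, adjusted p = 0.34). Against Pbrm1 mutants its double mutant value had the opposite sign (-0.22 ± 0.13 SE, adjusted p = 0.34). With this probe set double mutants did not pass against Vhl mutants either (0.38 ± 0.13 SE, adjusted p = 0.086). Its interaction was -0.06 ± 0.18 SE (adjusted p = 0.92). With the mean of both probe sets in place of the first, the difference between double and Pbrm1 mutants was 0.26 and no longer passed (adjusted p = 0.17). The rises over wild type did pass with that mean, at 0.70 in Pbrm1 mutants (adjusted p = 0.00082) and 0.96 in double mutants (adjusted p = 6.0e-06).

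**Figure D1:**
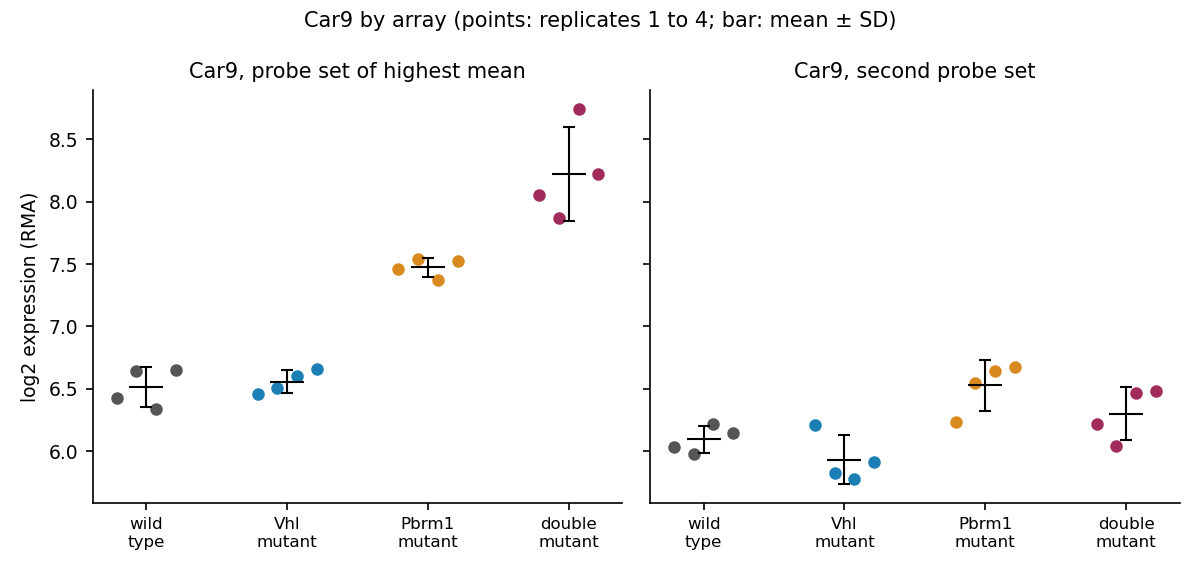
Log2 expression (vertical axis) of the 2 Car9 probe sets on each array (points, replicates 1 to 4 from left to right) by genotype (horizontal axis), with mean ± SD bars. With the probe set of highest mean, the 4 double mutant arrays lie between 7.87 and 8.74 and the 4 Pbrm1 mutant arrays between 7.37 and 7.54, above all others; with the second, the Pbrm1 mutant mean, 6.53, is above the double mutant mean, 6.30.

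Other hypoxia-inducible factor targets mostly rose in the groups with the Vhl deletion. Of 18 such targets, a list that leaves Car9 out, 12 rose and 0 fell in Vhl mutants, where 3.84% of all genes passed, with a median log2 fold change of 0.39 against -0.01 over all genes. Egln3, a prolyl hydroxylase that inactivates the factors, rose 4.56-fold (log2 change of 2.19 ± 0.14 SE, adjusted p = 1.4e-08). The lactate exporter Slc16a3 rose 3.03-fold, the hexokinase Hk2 rose 2.67-fold and the vasodilator peptide gene Adm rose 2.2-fold. In Pbrm1 mutants 1 target rose and 1 fell, namely Ndrg1 (log2 change of 0.46 ± 0.12 SE, adjusted p = 0.031) and the glycolysis regulator Pfkfb3 (-0.47 ± 0.12 SE, adjusted p = 0.034), beside 4.04% of all genes, with a list median of 0.01. In double mutants 14 rose and 0 fell, beside 12.2% of all genes, with a median of 0.51, among them Egln3 (5.33-fold), Slc16a3 (3.82-fold), Hk2 (2.92-fold) and the glucose transporter Slc2a1 (2.25-fold). Egln3 thus rose in the Vhl mutants in which Car9 read 0.04, and read 0.11 in the Pbrm1 mutants in which Car9 rose. The double and single mutant comparisons share their wild-type arrays.

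**Figure D2:**
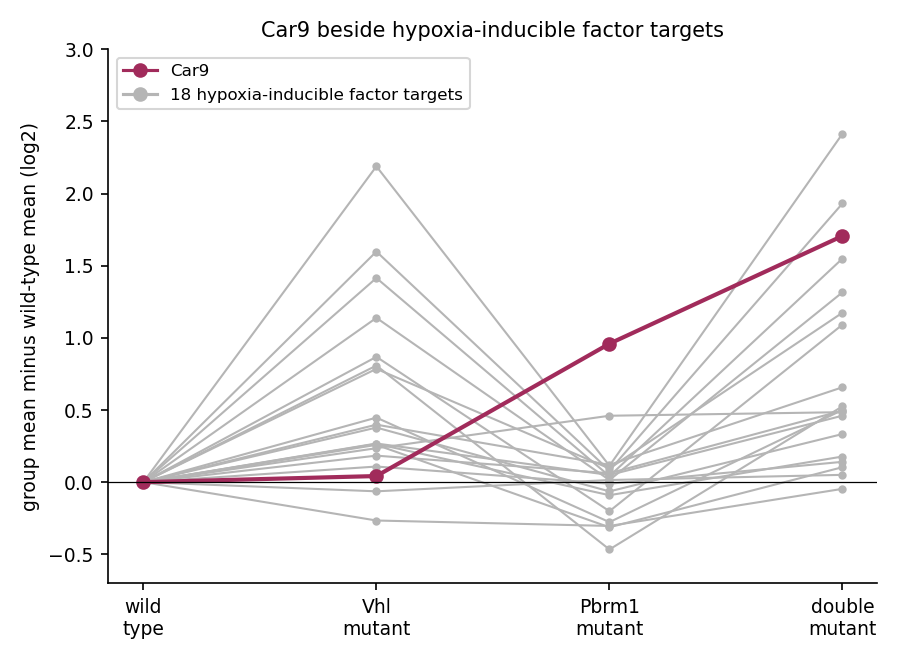
Group mean minus wild-type mean (log2, vertical axis) in each genotype (horizontal axis), with 1 grey line for each of 18 hypoxia-inducible factor targets and a red line for Car9. The lines join groups of different mice and show no order in time; Car9 lies at 0.04 in Vhl mutants, where Egln3 reads 2.19, and at 0.96 in Pbrm1 mutants, above every target.

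The genes next to Car9 did not pass the test. Of the 3 nearest genes on each side with a probe set, Tesk1, Sit1, Arhgef39, Tpm2, Tln1 and Creb3, 0 were called in any of the 6 pairwise comparisons (limma). Over all genes 3.84% to 12.2% were called in these comparisons, so 0 of 6 is near that share. Without adjustment, p was under 0.05 for 2 of these 6 in Pbrm1 mutants against wild type, 1 in double mutants against wild type and 1 in Vhl against Pbrm1 mutants. The shares of all genes at that unadjusted p were 16.1%, 23.4% and 18.4% in the same order. The nearest upstream neighbour, Arhgef39, had the highest value in Pbrm1 mutants (log2 fold change 0.37, adjusted p = 0.09). Over all 22180 genes, the 3 closest to Car9 by root mean square difference of centred values over the 16 arrays were Atp10d, a phospholipid-transporting ATPase (0.19, against a standard deviation of 0.75 for Car9), the lymphocyte phosphatase Ptpn22 (0.25) and BC048594 (0.25). Atp10d averaged 6.29 in wild type, 6.16 in Vhl mutants, 7.18 in the Pbrm1 mutants and 7.71 in double mutants, the same order of groups as Car9 apart from the near-equal lower pair.

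Markers of other cells moved in part of these groups. Tubular injury markers had a mean level between 6.13 and 6.28 in wild type, 6.75 and 7.23 in Vhl mutants, 6.04 and 6.39 in the Pbrm1 mutants and 7.75 and 8.04 in double mutants. Of these 9 markers, 0 were called in Pbrm1 mutants against wild type (limma), beside 4.04% of all genes. Unadjusted p was under 0.05 for 5 of the 9, beside 16.1% of all genes. Log2 fold changes of the 9 markers in Pbrm1 mutants ran from -0.43 for Krt18 to 1.62 for Havcr1. In double mutants Havcr1 was 4.73 higher than in wild type. The part of tubular injury in the Car9 values was not tested. Macrophage markers lay between 6.12 and 6.36 in wild type, 6.75 and 7.25 in Vhl mutants, 6.09 and 6.19 in the Pbrm1 mutants and 6.73 and 7.05 in double mutants, and 0 of 10 were at background. Endothelial markers lay between 8.10 and 8.18 in wild type, 8.45 and 8.61 in Vhl mutants, 7.91 and 8.04 in the Pbrm1 mutants and 8.39 and 8.52 in double mutants. The part of these cells in the results was not tested, and in whole cortex fewer cells of a type and less RNA per cell cannot be told apart.

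Over the family, the number of members called ran from 1 to 4 of 8 in the 6 pairwise comparisons. In Vhl mutants 1 of 8 members passed against wild type, Car15, where 3.84% of all genes passed. In Pbrm1 mutants 1 of 8 passed, Car9, where 4.04% of all genes passed. In double mutants 4 of 8 passed, with Car9 and Car2 higher and Car4 and Car15 lower, where 12.2% of all genes passed. Double mutants against Vhl mutants gave 2 of 8, Car9 and Car15, both higher, beside 6.35% of all genes. Double mutants against Pbrm1 mutants gave 4 of 8, Car9 higher and Car4, Car8 and Car15 lower, beside 10.2% of all genes. Vhl against Pbrm1 mutants gave 3 of 8, Car9, Car12 and Car15, all lower in Vhl mutants, beside 7.47% of all genes. The interaction called 0 of 8 (limma), beside 2.63% of all genes. Its unadjusted p was under 0.05 for 3 of the 8, beside 15.9% of all genes. The median log2 fold change of the 8 members was 0.05 in Vhl mutants, 0.14 in the Pbrm1 mutants and 0.08 in double mutants against wild type. Over all genes it was -0.01, -0.01 and -0.02. Against wild type 5 members read higher and 3 lower in Vhl mutants, 6 and 2 in Pbrm1 mutants and 5 and 3 in double mutants. In Vhl against Pbrm1 mutants 2 read higher and 6 lower. A common direction of the family was not tested. Without double mutant replicates 1 to 3, which leaves replicate 4 alone, the double mutant calls of Car4, Car8 and Car15 ended and those of Car9 and Car2 held.

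**Figure D3:**
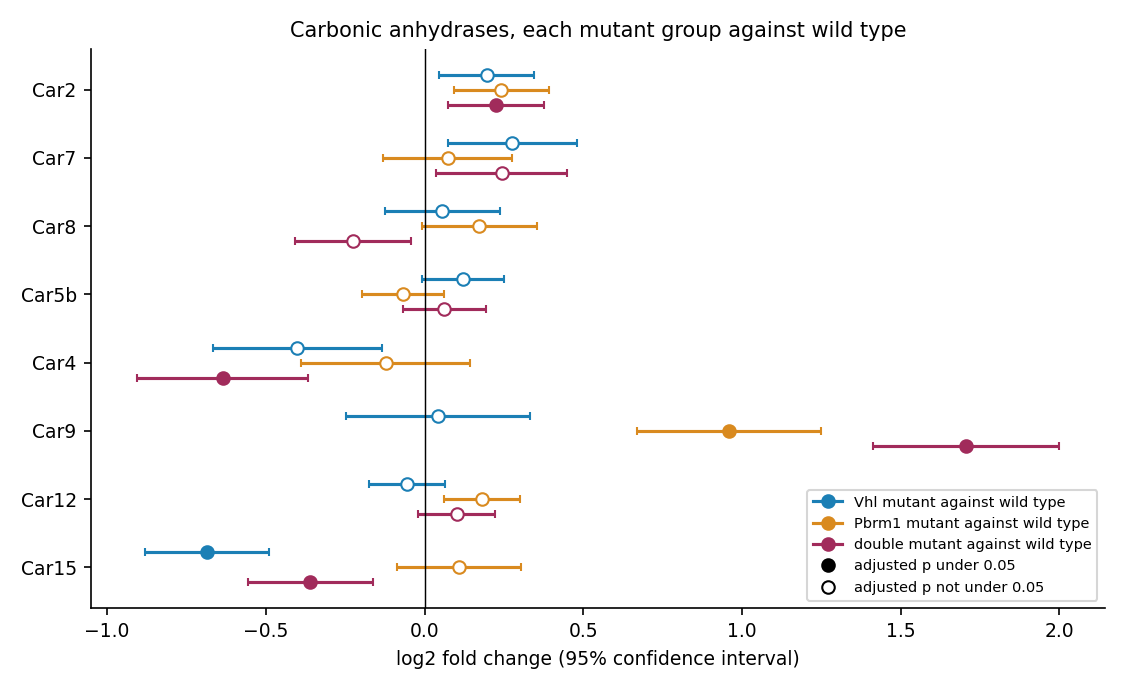
Log2 fold change against wild type (horizontal axis) with its 95% confidence interval for 8 carbonic anhydrases (vertical axis) in Vhl, Pbrm1 and double mutants; filled points passed at an adjusted p under 0.05. Car9 lies farthest to the right at 0.96 and 1.71 in Pbrm1 and double mutants, and Car15 farthest to the left among Vhl mutant values at -0.68.

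Car15, an enzyme held on the outer membrane by a glycosylphosphatidylinositol anchor and active in mice, fell where Vhl was deleted. Its wild-type arrays read 9.04, 9.0, 9.01 and 8.87, and its Pbrm1 mutant arrays 9.03, 8.98, 9.11 and 9.25. The Vhl mutant arrays read 8.42, 8.45, 8.13 and 8.18, below all of those. The double mutant arrays read 8.56, 8.38, 8.80 and 8.72, below every wild-type array and overlapping the Vhl mutants at their lower end. Car15 fell 1.61-fold in Vhl mutants (log2 change of -0.68 ± 0.09 SE, adjusted p = 0.00017) and 1.28-fold in double mutants (-0.36 ± 0.09 SE, adjusted p = 0.014). In Pbrm1 mutants the log2 fold change was 0.11, with a 95% interval from -0.09 to 0.31 (adjusted p = 0.65). Double mutants lay below Pbrm1 mutants (-0.47 ± 0.09 SE, adjusted p = 0.0019), as did Vhl mutants (-0.79 ± 0.09 SE, adjusted p = 9.5e-06). The double mutant call ended without Pbrm1 mutant replicates 3 and 4 (-0.38, adjusted p = 0.051).

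Double mutants lay above Vhl mutants in Car15 by 0.32 ± 0.09 SE (adjusted p = 0.044), and this call ended when any 1 of 9 arrays was left out, namely wild-type replicates 1 or 3, double mutant replicates 1, 3 or 4, Pbrm1 mutant replicates 1 or 3 or Vhl mutant replicates 3 or 4 (adjusted p up to 0.14). The fall of Car15 in double mutants also ended without wild-type replicates 1 and 2 and with arrays averaged per number (adjusted p = 0.089). The interaction of Car15 was 0.21 ± 0.13 SE (adjusted p = 0.46). The genes closest to Car15 over the 16 arrays were Scn4b, a sodium channel subunit (root mean square difference 0.13, against a standard deviation of 0.35 for Car15), the flavin monooxygenase Fmo5 (0.14) and Erich4 (0.15). Fmo5 averaged 9.04 in wild type, 8.62 in Vhl mutants, 9.18 in the Pbrm1 mutants and 8.83 in double mutants. Of the 6 nearest neighbours of Car15 with a probe set, 0 were called in the 3 comparisons with wild type or in double against Vhl mutants (limma), and 1 in each had an unadjusted p under 0.05. Over all genes 3.84% to 12.2% were called in these comparisons, and 16.1% to 23.4% had an unadjusted p under 0.05. Against Pbrm1 mutants 1 of 6 was called in double and in Vhl mutants, beside 10.2% and 7.47% of all genes. At an unadjusted p under 0.05 there were 2 and 3 of the 6, beside 21.7% and 18.4% of all genes. The called gene was the scavenger receptor gene Scarf2, in the opposite direction to Car15. It was higher by 0.57 in double mutants (adjusted p = 0.0018) and by 0.61 in Vhl mutants (adjusted p = 0.0012). The adjacent gene B830017H08Rik had the same sign as Car15 and did not pass. Its values were -0.42 in double mutants (adjusted p = 0.13) and -0.47 in Vhl mutants (adjusted p = 0.092).

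Car4, the anchored enzyme of the proximal tubule brush border, fell in double mutants. Its wild-type arrays read 9.65, 9.54, 9.61 and 9.34 and its double mutant arrays 8.76, 8.75, 9.03 and 9.02, with no overlap. The Vhl mutant arrays read 9.24, 9.30, 8.91 and 9.09, also below every wild-type array and overlapping the double mutants. The Pbrm1 mutant arrays fell into pairs by description number, with 9.16 and 9.09 for replicates 1 and 2 and 9.70 and 9.69 for replicates 3 and 4. Car4 fell 1.55-fold in double mutants against wild type (log2 change of -0.64 ± 0.13 SE, adjusted p = 0.002). The value in Vhl mutants did not pass (-0.40 ± 0.13 SE, 95% interval -0.67 to -0.13, adjusted p = 0.089), nor did that in Pbrm1 mutants (-0.12 ± 0.13 SE, adjusted p = 0.73). Double mutants lay below Pbrm1 mutants (-0.51 ± 0.13 SE, adjusted p = 0.012), a difference that shrank to -0.23 (adjusted p = 0.32) without Pbrm1 mutant replicates 3 and 4. Double and Vhl mutants were not separated (-0.24 ± 0.13 SE, adjusted p = 0.34).

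The fall of Car4 in double mutants came with lower proximal tubule markers. Their mean level lay between 11.02 and 11.31 there and between 11.45 and 11.50 in wild type. Of these 10 markers 5 were called lower and 1 higher, beside 12.2% of all genes called. The glucose transporter Slc5a2 fell 1.68-fold (log2 change of -0.75 ± 0.06 SE, adjusted p = 8.8e-08) and the urate transporter Slc22a12 fell 1.42-fold, while the lactate transporter Slc5a12 rose 1.34-fold. The part of these cells in the Car4 result was not tested. The genes closest to Car4 over the 16 arrays were Abhd3, a phospholipase (root mean square difference 0.14, against a standard deviation of 0.32 for Car4), the progestin receptor family member Paqr7 (0.16) and the dipeptidase Cndp2 (0.16). Of the 6 neighbours of Car4 with a probe set, 1 was called in each comparison with wild type. The shares of all genes called were 3.84%, 4.04% and 12.2% in the Vhl, Pbrm1 and double groups. The called neighbour was the same gene each time, Myo19, a myosin of mitochondria. Its log2 fold changes were -0.32, -0.39 and -0.48 in the same order.

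Car12, the transmembrane enzyme of basolateral membranes, varied little. Its arrays lay between 9.98 and 10.08 in wild type, 9.84 and 10.13 in Vhl mutants, 10.19 and 10.26 in the Pbrm1 mutants and 10.11 and 10.18 in double mutants. The Pbrm1 mutant arrays were all above every array of the other groups. Only the difference between Vhl and Pbrm1 mutants passed among the 7 comparisons of Car12 (log2 fold change -0.24 ± 0.06 SE, 1.18-fold, adjusted p = 0.013). It ended without the arrays of either Pbrm1 mutant number or without Vhl mutant replicates 3 and 4 (adjusted p up to 0.12). Against wild type the log2 fold changes were -0.05 in Vhl mutants (adjusted p = 0.71), 0.18 in Pbrm1 mutants (adjusted p = 0.091) and 0.10 in double mutants (adjusted p = 0.33).

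Car2, the highly active cytosolic enzyme of proximal tubule and intercalated cells, read slightly higher in every mutant group. Its wild-type arrays read 10.65, 10.75, 10.73 and 10.61. The Vhl mutant arrays read 10.74, 10.95, 10.89 and 10.95, and the Pbrm1 mutant arrays 10.96, 10.98, 10.89 and 10.89. The double mutant arrays read 10.75, 10.77, 11.04 and 11.06, with replicates 1 and 2 at or just above the top of the wild-type range and replicates 3 and 4 above it. The rise in double mutants was 1.17-fold (log2 change of 0.22 ± 0.07 SE, adjusted p = 0.047). That call held in 15 of 35 alternatives and ended when any 1 of 11 arrays was left out (adjusted p up to 0.20); the 5 arrays whose absence left it in place were wild-type replicate 2, double mutant replicates 1 and 2 and Vhl mutant replicates 1 and 4. The values in Vhl mutants (0.20 ± 0.07 SE, adjusted p = 0.15) and Pbrm1 mutants (0.24 ± 0.07 SE, adjusted p = 0.065) were of like size and did not pass. The genes closest to Car2 over the 16 arrays were the adaptor Ywhaz (root mean square difference 0.07, against a standard deviation of 0.14 for Car2), the splicing factor Srrm1 (0.07) and the ubiquitin ligase Nedd4l (0.08).

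Car8, which has lost catalytic activity and binds the inositol trisphosphate receptor, was lowest in double mutants. Its 4 double mutant arrays lay between 5.10 and 5.28, below every array of the other groups. Wild-type arrays lay between 5.36 and 5.51, Vhl mutant arrays between 5.38 and 5.60 and Pbrm1 mutant arrays between 5.52 and 5.65. Car8 was 1.32-fold lower in double than in Pbrm1 mutants (log2 change of -0.40 ± 0.09 SE, adjusted p = 0.0042). Without Pbrm1 mutant replicates 1 and 2 this no longer passed (-0.35, adjusted p = 0.064). The other values did not pass: -0.23 ± 0.09 SE against wild type (adjusted p = 0.11), -0.28 ± 0.09 SE against Vhl mutants (adjusted p = 0.061) and -0.45 ± 0.12 SE for the interaction (adjusted p = 0.053).

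Car5b, the mitochondrial enzyme that supplies bicarbonate to carboxylases, and Car7, a cytosolic enzyme best known from neurons, were called in 0 of the 7 comparisons (limma). Unadjusted p was under 0.05 in 1 comparison for Car5b and in 3 for Car7. Car5b arrays lay between 9.12 and 9.25 in wild type, 9.17 and 9.40 in Vhl mutants, 9.05 and 9.16 in the Pbrm1 mutants and 9.14 and 9.31 in double mutants. Car7 arrays lay between 5.49 and 5.85 in wild type, 5.82 and 6.15 in Vhl mutants, 5.66 and 5.84 in the Pbrm1 mutants and 5.92 and 5.97 in double mutants, the last above every wild-type array. The 95% intervals against wild type reached from -0.20 to 0.25 for Car5b over the 3 mutant groups and from -0.13 to 0.48 for Car7.

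**Figure D4:**
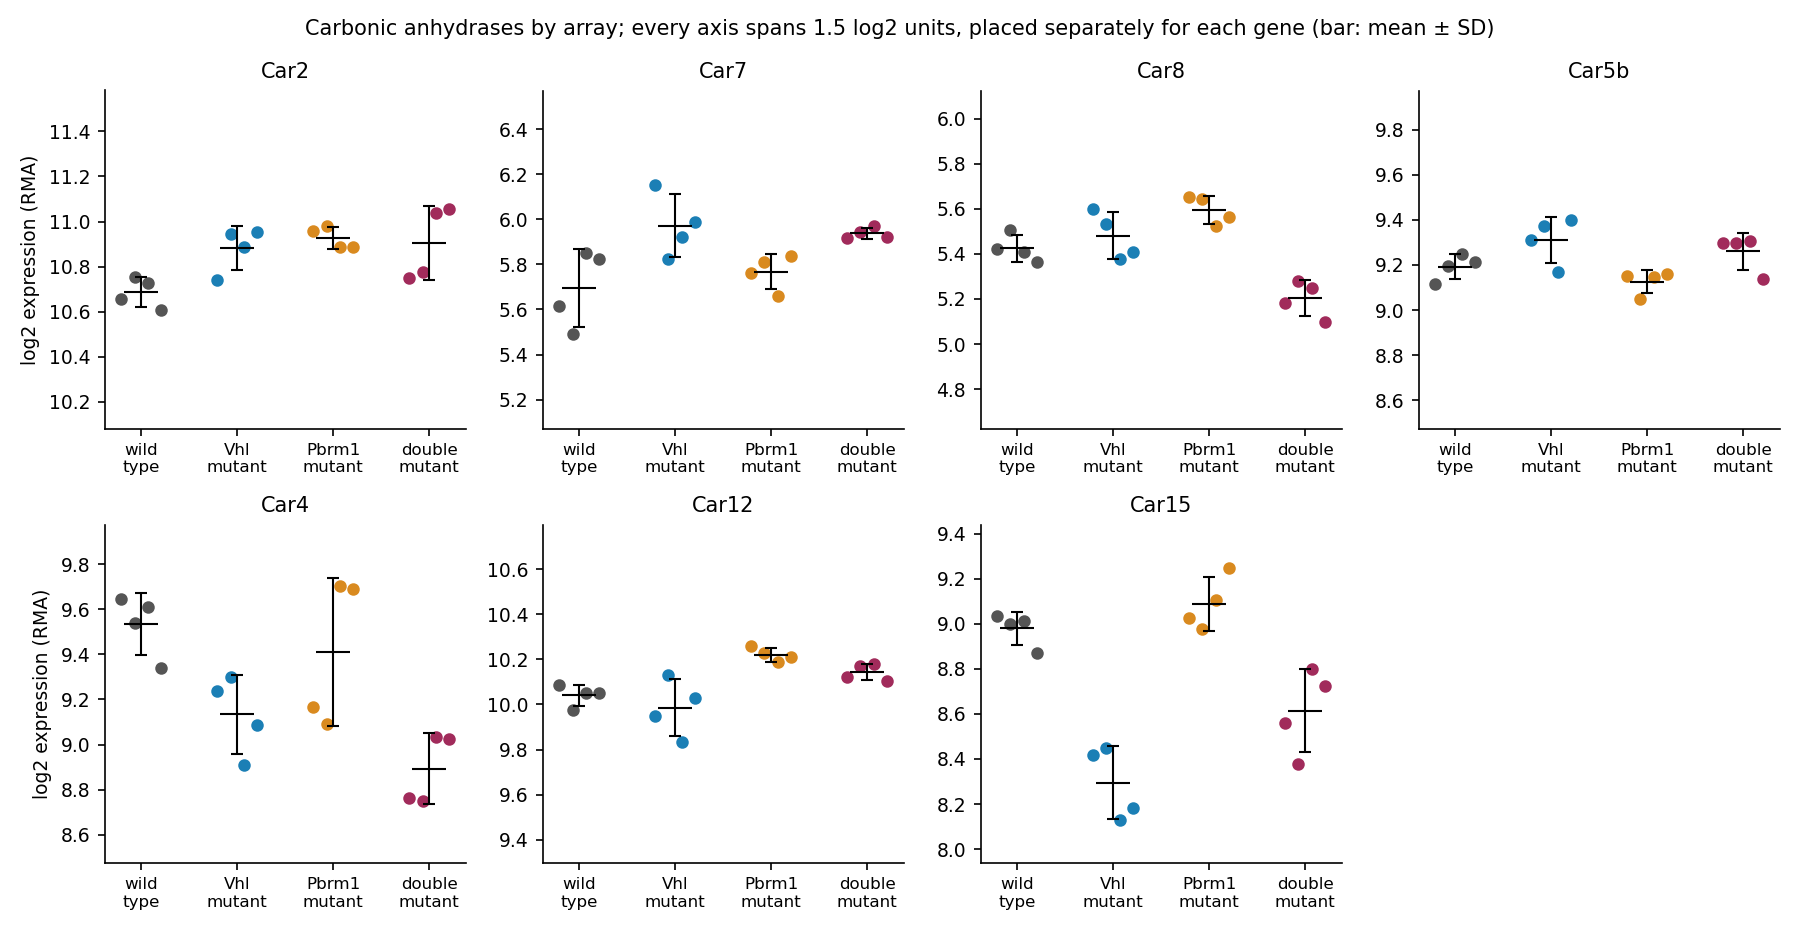
Log2 expression (vertical axes, each spanning 1.5 units) of 7 carbonic anhydrases on each array (points, replicates 1 to 4 from left to right) by genotype (horizontal axes), with mean ± SD bars. Car15 is low in Vhl mutants (8.13 to 8.45), Car4 in double mutants (8.75 to 9.03) and Car8 in double mutants (5.10 to 5.28), and the other panels show smaller shifts.

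Outside the 10 members, 8 further genes of the family were measured, and those that passed against wild type were Car13 and Ptprg. Against wild type 0 of 8 were called in Vhl mutants (limma), with 2 at an unadjusted p under 0.05, 1 in the Pbrm1 mutants and 1 in double mutants, where 3.84%, 4.04% and 12.2% of all genes passed, so the double mutant share was near that of all genes. Car13, a cytosolic enzyme, read between 6.21 and 6.50 in double mutants and between 5.42 and 6.06 on all arrays of the other groups. It rose 1.70-fold in double mutants over wild type (log2 change of 0.77 ± 0.11 SE, adjusted p = 5.1e-05), with 0.26 ± 0.11 SE in Vhl mutants (adjusted p = 0.21) and 0.07 ± 0.11 SE in Pbrm1 mutants (adjusted p = 0.83). It was also higher in double than in Vhl mutants (0.50 ± 0.11 SE, adjusted p = 0.0062) and than in Pbrm1 mutants (0.70 ± 0.11 SE, adjusted p = 0.00016). The first of these calls ended without Vhl mutant replicates 1 and 2 (0.40, adjusted p = 0.072) and without double mutant replicates 1 to 3 (0.64, adjusted p = 0.062). The interaction of Car13 did not pass (0.43 ± 0.15 SE, adjusted p = 0.15).

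Ptprg is a receptor phosphatase with a carbonic anhydrase-like domain outside the cell. Its Pbrm1 mutant arrays lay between 6.98 and 7.04, below every other array, while wild type lay between 7.71 and 7.94, Vhl mutants between 7.92 and 8.04 and double mutants between 7.39 and 7.83. Ptprg fell 1.80-fold in Pbrm1 mutants (log2 change of -0.85 ± 0.09 SE, adjusted p = 5.1e-06). In double mutants, which also lack Pbrm1, it was -0.21 ± 0.09 SE against wild type (adjusted p = 0.14) and 0.63 ± 0.09 SE against Pbrm1 mutants (adjusted p = 4.9e-05). The interaction was 0.50 ± 0.13 SE (adjusted p = 0.036), and that call ended when any 1 of 9 arrays was left out, namely wild-type replicates 1 or 2, double mutant replicates 1 or 2, Pbrm1 mutant replicates 2, 3 or 4 or Vhl mutant replicates 2 or 3 (adjusted p up to 0.074). It also ended without wild-type replicates 1 and 2 or either number of the Pbrm1 or Vhl mutants (adjusted p up to 0.13). With arrays averaged per number (adjusted p = 0.14), quantile normalization (0.076) or no variance trend (0.076) it ended as well. Double mutants lay below Vhl mutants (-0.35 ± 0.09 SE, adjusted p = 0.021), and leaving out double mutant replicate 3 or 4 ended this call (adjusted p up to 0.076). Leaving out the arrays of either Vhl mutant number ended it too (adjusted p up to 0.086).

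Car11, a secreted family member without enzyme activity, read 6.03, 5.99, 6.78 and 6.74 in double mutants, so that replicates 3 and 4 stood above every other array and replicates 1 and 2 lay within the other groups. Its difference between double and Pbrm1 mutants passed (0.51 ± 0.16 SE, adjusted p = 0.044) and ended when any 1 of 7 arrays was left out, namely wild-type replicate 1, double mutant replicates 3 or 4, Vhl mutant replicate 2 or Pbrm1 mutant replicates 1, 2 or 4 (adjusted p up to 0.19). Car3, the enzyme of muscle and fat, varied from 7.68 to 10.4 over the arrays and passed in 0 of the 7 comparisons (limma), with an unadjusted p under 0.05 in 3. Its highest array was Pbrm1 mutant replicate 3, and its Pbrm1 mutant value was 0.98 ± 0.38 SE (adjusted p = 0.19). The mean level of adipose markers other than Car3 had a median over arrays of 4.73 in wild type and 4.79 in Vhl mutants. That median was 4.675 in Pbrm1 mutants and 4.98 in double mutants. The highest arrays reached 5.82 in Pbrm1 mutants, 5.48 in double mutants, 5.21 in Vhl mutants and 4.94 in wild type. The part of these markers in the Car3 values was not tested. Car1, Car6 and Ptprz1 averaged below 3.72 in all 4 groups, and Car10 averaged between 3.58 and 3.73, so no fold is given for these.

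Among the transporters that work beside the carbonic anhydrases, part of those of intercalated cells fell in Vhl and double mutants. Of 17 genes of intercalated cell acid-base transport, a list that also holds transcription factors of these cells such as Foxi1, 8 fell and 0 rose after loss of Vhl, where 3.84% of all genes passed. After loss of Pbrm1, 2 fell and 0 rose beside 4.04% of all genes, and in double mutants 12 fell and 0 rose beside 12.2%. The median log2 fold changes of the list were -0.56, -0.20 and -0.68 in the same order. Among the genes that did not pass were the proton pump subunit Atp6v0a4 (0.13) and the water channel Aqp6 (0.13) in Vhl mutants and Foxi1 (-0.07) in double mutants. The ammonia channel Rhcg fell 1.67-fold in Vhl mutants, 1.33-fold in the Pbrm1 mutants and 3.13-fold in double mutants (log2 change of -1.65 ± 0.08 SE, adjusted p = 1.1e-10). The proton pump subunit Atp6v1b1 fell 1.53-fold, 1.26-fold and 2.05-fold in the same order. The chloride-bicarbonate exchanger Slc26a4 fell 1.81-fold in Vhl mutants and 2.40-fold in double mutants, and the ammonia transporter Rhbg fell 2.84-fold in double mutants. Car2, whose enzyme feeds these pumps, read 0.22 higher in the same double mutants. The genes of this list also serve as the markers of intercalated cells here, so fewer such cells and less RNA per cell cannot be told apart. Falls were not limited to these cells. Of 7 principal cell markers, 1 fell and 0 rose in Vhl mutants, and 4 fell and 0 rose in double mutants. Of 8 thick ascending limb markers, 3 fell and 0 rose in Vhl mutants, and 5 fell and 2 rose in double mutants. In Pbrm1 mutants 0 of either list were called (limma). The shares of all genes given above apply here too.

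A list of proximal bicarbonate reclamation and ammonia production held 12 genes. Among them were the glucose transporter Slc5a2, the phosphate transporter Slc34a1 and the water channel Aqp1, which carry other substrates. Slc5a2 and Slc34a1 are also proximal tubule markers here. On this list 1 rose and 2 fell in Vhl mutants, and 2 rose and 0 fell in the Pbrm1 mutants. In double mutants 2 rose and 3 fell, the lowest value being that of Slc5a2 (-0.75). The list medians were -0.10, 0.10 and -0.07 in the order Vhl, Pbrm1 and double mutants. The shares of all genes that passed, 3.84%, 4.04% and 12.2% in that order, apply to this list and to the next lists of pump subunits and lactate export partners. The glutamine transporter Slc38a3 rose 1.74-fold in the Pbrm1 mutants and 2.44-fold in double mutants (log2 change of 1.29 ± 0.21 SE, adjusted p = 0.00024). The glutamate dehydrogenase Glud1, a source of ammonia, rose 1.21-fold in Vhl mutants and 1.24-fold in Pbrm1 mutants. The sodium-proton exchanger Slc9a8 fell 1.22-fold in Vhl mutants and 1.20-fold in double mutants. Of 14 ubiquitous proton pump subunits, 1 fell in Vhl mutants, 0 were called in Pbrm1 mutants (limma, 2 at an unadjusted p under 0.05) and 5 fell in double mutants, led by Atp6v1e1 (1.36-fold, log2 change of -0.45 ± 0.06 SE, adjusted p = 2.0e-05). Of 8 partners in cell pH and lactate export, 3 rose in Vhl mutants and 3 in double mutants, the exporter Slc16a3, its chaperone Bsg (1.14-fold and 1.13-fold) and the proton-sensing receptor Gpr65 (1.61-fold and 1.45-fold), and 0 were called in Pbrm1 mutants (limma, 2 at an unadjusted p under 0.05).

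**Figure D5:**
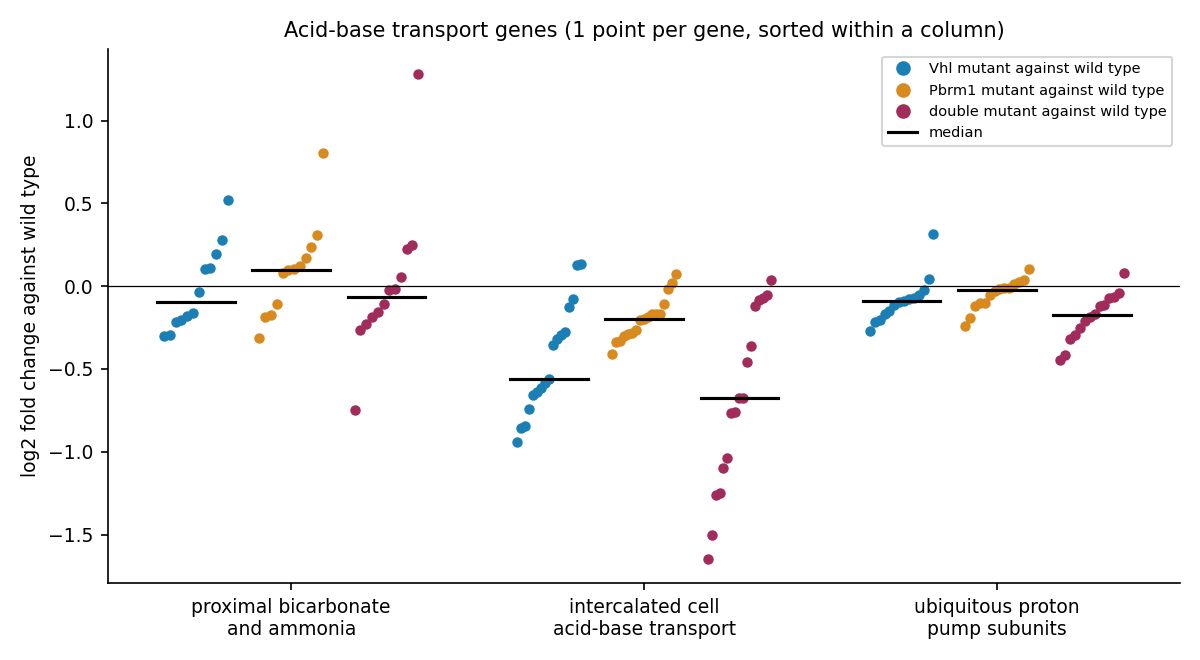
Log2 fold change against wild type (vertical axis) of each gene (points) in 3 lists of acid-base genes (horizontal axis) for Vhl, Pbrm1 and double mutants, with a bar at each median. The intercalated cell list has medians of -0.56, -0.20 and -0.68, and the other lists have medians between -0.18 and 0.10. The proximal list also holds the glucose transporter Slc5a2, the phosphate transporter Slc34a1 and the water channel Aqp1.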

How the data were processed

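Kidney cortex RNA was hybridised to Affymetrix arrays, per the labels. The authors deposited log2 values and, per the submitters' processing notes, used RMA and Affymetrix Expression Console 1.4; 0 columns of values were unused. Of 41345 probe sets, 23521 have 1 gene symbol, 1814 have several and 16010 are not listed in the annotation; the last 2 kinds were left out. The probe set of highest mean was used for each of 22180 genes. Gene order and promoters came from RefSeq tables of GRCm38.p6; the build of the array's own annotation is not given in the sources used here.

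Linear models of the 4 groups were fitted with limma 3.58.1 (R 4.3.3), with the description number as a random block (correlation 0.0838) and a variance trend (prior degrees of freedom 7.73, residual 12). Tests were adjusted over all genes by Benjamini-Hochberg, with a threshold of 0.05. There were 7 comparisons: 3 of a mutant group with wild type, 3 between mutant groups, and the interaction (double minus Vhl minus Pbrm1 plus wild type). The scripts were tested on simulated data. The replicate numbers of the titles did not pair samples across groups. Named genes were all members, the other family genes, up to 4 called members of each other list per comparison with the smallest adjusted p, and for each member called against wild type the 3 closest genes; Myo19, Arhgef39 and other neighbours were chosen by position, and those given singly after their values were seen. The members and lists were chosen with earlier results of these data known. Alternatives were no block, other blocks, averaged arrays, other probe set, scaling and variance choices, only the groups compared, and leaving out each array or number. Tables and figures used Python 3.11.15 with numpy 2.4.6, matplotlib 3.10.9 and pandas 2.3.3.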

Additional observations from a re-analysis of the deposited data

Results flagged for a closer look

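Of 72 groups of 4 arrays checked for carbonic anhydrase genes, 4 held an array set apart from the other 3 by more than Dixon's 95% critical value, and chance alone sets apart about 1 in 20. Car5b was lowest in Pbrm1 mutant replicate 2, at 9.05 against 9.15 to 9.16 in the other 3 arrays, and in double mutant replicate 4, at 9.14 against 9.30 to 9.31. Car13 was highest in Pbrm1 mutant replicate 2, at 5.82 against 5.60 to 5.63. Car1 was highest in wild-type replicate 2, at 3.18 against 3.03 to 3.04, a level below 3.72 and possibly at background. The effect of losing Vhl differed with and without Pbrm1 by the interaction test in 5 genes of the family and its acid-base lists. They were Ptprg (0.50, log2), Rhcg (-0.50), Slc5a2 (-0.39), Glud1 (-0.36) and Slc34a1 (-0.25). By list these were 1 of 8 further family genes, 3 of 12 proximal genes and 1 of 17 intercalated cell genes, beside 2.63% of all genes. No member, ubiquitous pump subunit or lactate export partner was called. Slc5a2 and Slc34a1 carry glucose and phosphate. The Ptprg call ended when any 1 of 9 arrays was left out, with arrays averaged per number, after quantile normalization and with no variance trend.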

How the results depend on the processing

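Among the 300 gene values and their alternatives, 35 per comparison and 34 for the interaction, none that passed the test in either setting changed sign, while values that passed in neither, such as Car4 in Pbrm1 mutants against wild type (-0.41 to 0.16), could; 526 alternative values lost a call and 46 gained one. The Car9 calls held in all 35 for Pbrm1 against wild type, double against wild type, double against Vhl and Vhl against Pbrm1 mutants. For double against Pbrm1 mutants they held in 34, the exception being the mean of its probe sets. The interaction of Car9 passed in 9 of 34. None of these alternatives used the second Car9 probe set alone, with which only Vhl against Pbrm1 mutants passed. Of the 8 members, the number called in Pbrm1 mutants against wild type was 2 with no number block, with double mutant replicates 2 and 3 averaged and after quantile normalization, and 3 with only the groups compared. In Vhl mutants against wild type it was 2 with only the groups compared. With arrays averaged per description number it was 2 for double mutants against wild type, 1 for double against Vhl mutants and 1 for the interaction. The interaction called 2 members with no number block, and 1 with replicates 2 and 3 averaged, the mean of probe sets, centring, quantile normalization or no variance trend; double against Vhl mutants called 1 with only the groups compared. With the replicate number of the titles as a block the interaction called 2 members, Car8 and Car9, and over all genes 839 against 583; these numbers are not a pairing in the data, since same-numbered arrays of different groups correlated between -0.07 and 0.06 over 24 pairs. Leaving out 1 array gave 1 member for Vhl, 1 to 2 for Pbrm1 and 3 to 4 for double mutants against wild type, 1 to 3 for double against Vhl mutants, 4 for double against Pbrm1, 3 to 4 for Vhl against Pbrm1 and 0 to 1 for the interaction. Leaving out the arrays of 1 number gave 1 to 2, 1 to 3, 2 to 4, 1 to 3, 1 to 4, 2 to 3 and 0 to 1 in the same order; where this leaves double mutant replicate 4 alone, it is assumed to vary like the other groups. Over all genes, averaging per number gave 246, 274, 1729, 710, 1398, 916 and 99 calls against 851, 895, 2706, 1408, 2260, 1656 and 583, in the order Vhl, Pbrm1 and double mutants against wild type, double against Vhl, double against Pbrm1, Vhl against Pbrm1 and interaction, from fewer arrays. The Vhl mutant count was 564 when Vhl mutant replicate 3 was left out, 545 when wild-type replicate 1 was, and 369 without wild-type replicates 1 and 2. The Pbrm1 mutant count was 512 without those 2 wild-type arrays and 349 without Pbrm1 mutant replicates 3 and 4, which also gave 1394 for double against Pbrm1 and 982 for Vhl against Pbrm1 mutants. Without double mutant replicates 1 to 3 the counts were 1212 against wild type, 481 against Vhl and 1011 against Pbrm1 mutants. The interaction count was 884 with no number block, 337 with no variance trend, 290 and 988 without each wild-type number, 236 without double mutant replicates 1 to 3 and 300 without Pbrm1 mutant replicates 3 and 4. The cause of these changes was not tested. The number of arrays limits small fold changes, and signal near background limits Car1, Car6, Car10 and Ptprz1.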
